A study of Mus musculus with 12 samples.

Results

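The 10 genes Npy1r, Npy2r, Sstr1, Sstr2, Sstr4, Galr1, Galr2, Adra2a, Adra2c and Adora1 encode receptors for neuropeptide Y, somatostatin, galanin, noradrenaline and adenosine. They were chosen by name as inhibitory receptors, out of 55416 genes counted, and followed in the dorsal root ganglion of adult C57Bl6 mice, where the cell bodies of the body's sensory neurons lie. Poly(A) RNA was sequenced in 6 libraries from inducible knockout (iKO) animals and 6 controls, to ask which genes depend on the zinc finger regulator Prdm12 in the adult. All iKO animals carried the tamoxifen-activated recombinase Rosa26CreERT2 and 2 floxed Prdm12 alleles (Fl/Fl), and were injected with tamoxifen and studied 1 month later. The Rosa26 locus is active in nearly all cell types, so the recombinase is not restricted to neurons. Control 1 (female) carried Rosa26CreERT2 and 1 floxed allele, controls 2 (female) and 3 (male) 1 floxed allele without the recombinase, and control 4 (male) the recombinase without a floxed allele. These 4 controls received tamoxifen. Controls 5 and 6 (male) carried Rosa26CreERT2 and Fl/Fl like the knockouts but were given corn oil. The libraries iKO 1 to 3 were female and iKO 4 to 6 male. Whether animals were pooled for a library is not in the labels, and p-values therefore cover the spread among these libraries, which may in part be technical.

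Most of these receptors couple to G proteins of the Gi/o class. When a ligand binds, the Gi/o alpha subunit lowers the activity of adenylyl cyclase, and the freed beta-gamma subunits open inwardly rectifying (GIRK) potassium channels and close presynaptic Cav2 calcium channels. In sensory neurons this reduces firing and the release of glutamate and peptides in the spinal cord. Galr2 is the exception among the 10, since it couples mainly to Gq. Agonists of alpha-2 adrenergic, adenosine A1 and somatostatin receptors reduce pain behaviour in rodents.

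Loss of Prdm12 went with no called change in the 10 receptor genes. All 10 passed the filter on low counts (edgeR's filterByExpr), and 0 passed an adjusted p of 0.05 between iKO and control in edgeR's quasi-likelihood fit, Benjamini-Hochberg adjusted over 16384 genes, where 0.946% of all genes tested were called. The nearest was Sstr1, a somatostatin receptor gene whose mean in iKO libraries was 45.3% of that in controls. Sstr1, Sstr4 and Adra2a had an unadjusted p under 0.05, 3 of 10 beside 9.52% of all genes tested, and DESeq2, another count test, called Sstr1 alone of the 10. Positive log2 fold changes were found in 6 receptor genes and negative ones in 4. Their median was 0.05, beside 0.00 over all genes tested, and their median absolute log2 fold change was 0.15, beside 0.09. The 10 genes were chosen with earlier results of these data known, so these shares and medians are no evidence about them as a group. The 6 iKO libraries overlapped the 6 controls in every one of the 10 genes. Only 1.54% of all genes tested had no overlap, so this does not set the 10 genes apart.

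**Figure D1:**
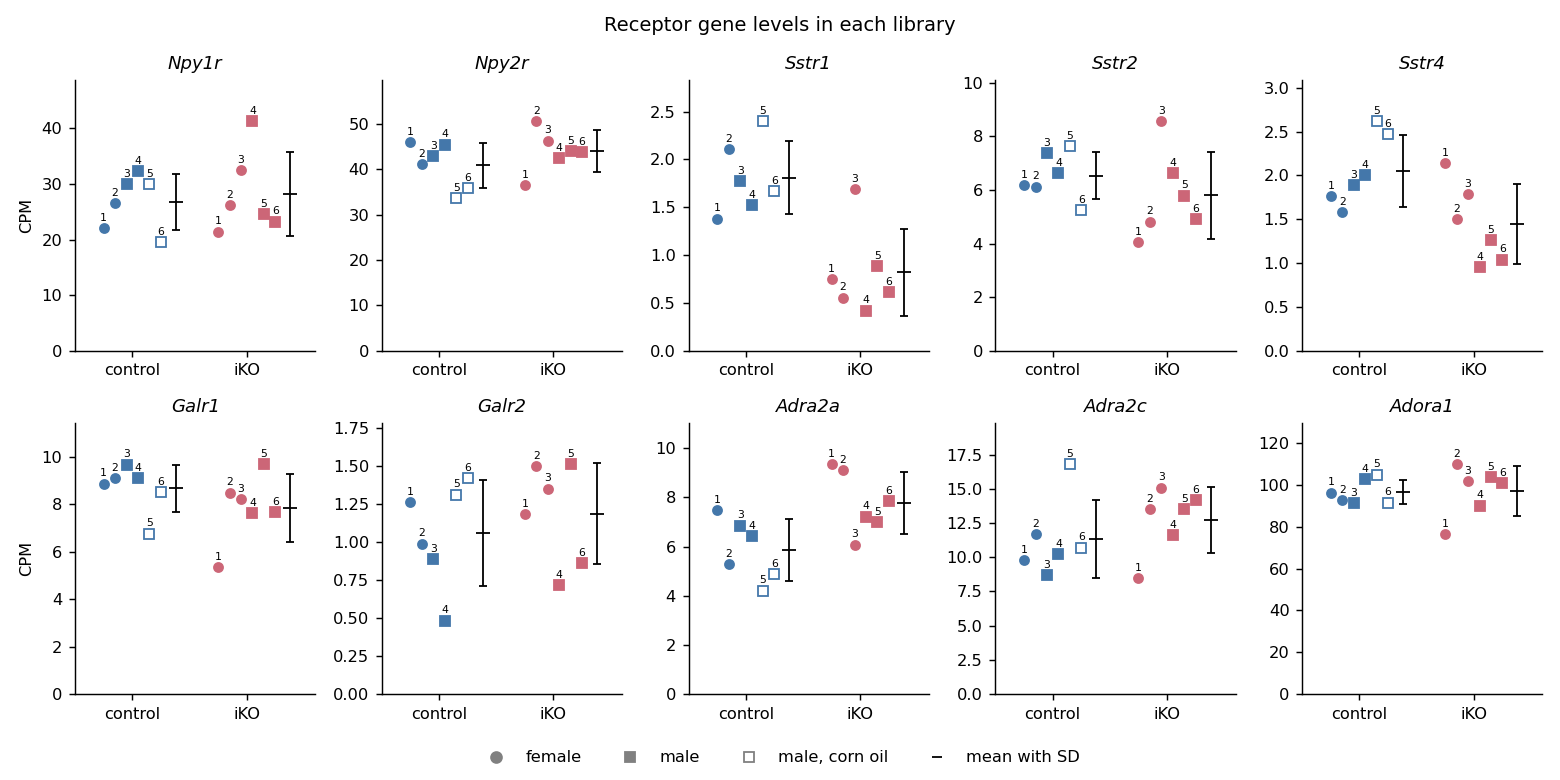
Each panel plots 1 receptor gene, with its level in CPM (counts scaled to a common library size of 1e+06, linear axis from 0) for 6 control and 6 iKO libraries numbered by replicate, and black bars for the mean with its SD. In the Sstr1 panel 5 of the 6 iKO libraries lie below all controls and iKO 3 lies among them, while the groups overlap widely in Npy1r and Adora1.

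The targeted gene was lower in every iKO library than in every control, and 1 library stood apart. Prdm12 fell from 117 ± 29.4 to 23.3 ± 2.51 CPM (SD, n = 6 each), 19.9% of the control mean, with control 6 lowest of the controls at 64.6 CPM. Totals ran from 13943784 to 20377766 counts per library. Marker genes of sensory neurons summed to 14700 to 20300 CPM (controls) and 13000 to 19400 CPM (iKO), while markers of sympathetic neurons summed to at most 11.5 CPM. Library iKO 1 had more RNA of connective tissue and immune cells than the other 5 iKO libraries. Its fibroblast markers summed to 3900 CPM (1410 to 1630 CPM in the others), its macrophage markers to 311 CPM (110 to 139 CPM) and its sensory neuron markers to 13000 CPM (17400 to 19400 CPM). It was the lowest of the iKO libraries in 6 of the 10 receptor genes and the highest in 2, Sstr4 and Adra2a. How often this library was lowest or highest over all genes was not counted, so this does not set the 10 genes apart. With iKO 1 left out 364 genes were called over the whole transcriptome and again 0 receptor genes. In bulk tissue fewer cells of a type and less RNA per cell cannot be told apart.

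The receptor genes differed widely in level. Per kilobase of exon, Adora1 (ENSMUSG00000042429), the adenosine A1 receptor gene, was the most abundant in controls at 16.7 ± 1.05 CPM per kb (SD, n = 6), followed by Npy2r (ENSMUSG00000028004) at 12.1 ± 1.48 and Npy1r (ENSMUSG00000036437) at 7.74 ± 1.44 CPM per kb. No control library overlapped between neighbours among these 3 genes, nor between Npy1r and the next gene. Adra2c (ENSMUSG00000045318) stood at 3.29 ± 0.83, Sstr2 (ENSMUSG00000047904) at 3.05 ± 0.411 and Galr1 (ENSMUSG00000024553) at 2.90 ± 0.338 CPM per kb, and the library ranges of these neighbours overlapped. A lower set held Sstr4 (ENSMUSG00000037014) at 1.44 ± 0.286, Adra2a (ENSMUSG00000033717) at 1.21 ± 0.261 and Sstr1 (ENSMUSG00000035431) at 0.883 ± 0.186 CPM per kb, again with overlapping neighbours. Galr2 (ENSMUSG00000020793) was the lowest at 0.430 ± 0.141 CPM per kb, with every control library below all Sstr1 controls. In iKO libraries the order was the same for the first 6 genes. Adra2a stood above Sstr4 there (1.61 ± 0.263 against 1.02 ± 0.320 CPM per kb) and Galr2 above Sstr1 (0.482 ± 0.136 against 0.400 ± 0.224 CPM per kb). Exon lengths are those of an older mouse annotation. With the longest transcript in place of all exons, Adora1 stood at 19.5 CPM per kb.

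**Figure D2:**
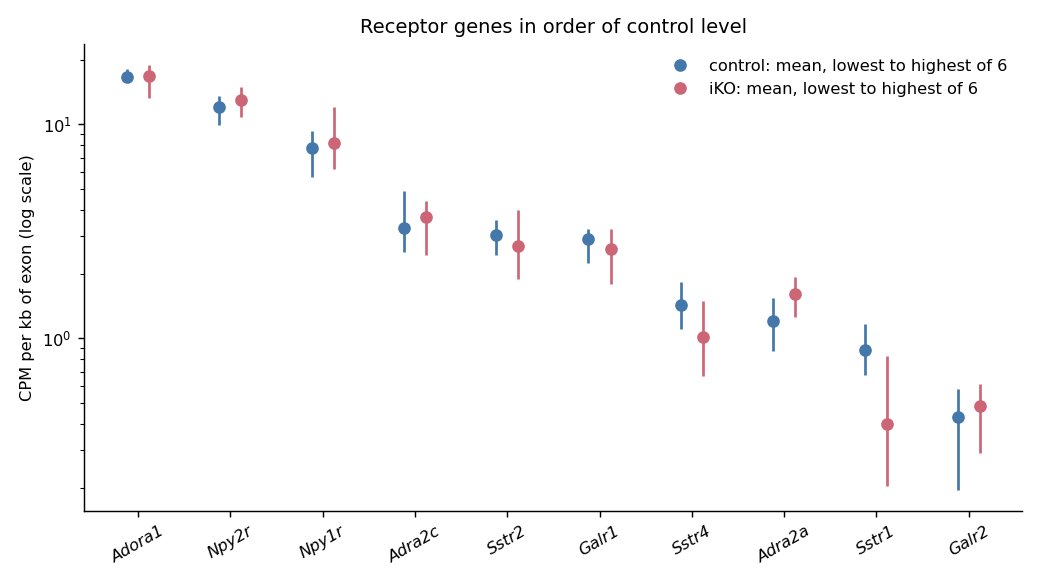
The vertical axis is the level in CPM per kb of exon on a log scale, and the 10 receptor genes are ordered by their control mean. Points are means and lines run from the lowest to the highest of 6 libraries. Adora1, Npy2r and Npy1r stand above the other 7 genes, and the iKO mean of Sstr1 (0.400) is lower than that of Galr2 (0.482).

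Counting error and the spread between libraries differed from gene to gene. Adora1 had 1600 counts per library on average and a counting error of 2.50%, while Sstr1 had 21.2 counts (21.7%), Galr2 18.7 counts (23.1%) and Sstr4 28.8 counts (18.7%). The spread between libraries beyond counting error, the biological coefficient of variation, ran from 10% in Adora1 to 27.6% in Sstr1. In Npy1r (4.69% counting error, 19.7% between libraries) and Adra2c (7.10% and 19.5%) the spread between libraries was the larger part, while in Galr2 the values were close, at 23.1% and 21.5%. Adora1 shares 20.1% of its exon bases with Mybph, a gene on the other strand, and the libraries do not record strand. Mybph averaged 0.786 CPM (controls) and 0.573 CPM (iKO), far under the 96.8 CPM of Adora1. The other 9 receptor genes share no exon bases with another gene.

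Among the 10 receptor genes the most negative fold changes were in the somatostatin receptor genes Sstr1 and Sstr4, neither of them called. Somatostatin is an inhibitory peptide made in the ganglion by itch-transmitting (NP3) neurons, and its receptors Sstr1, Sstr2 and Sstr4 are the 3 somatostatin receptors among the 10 genes. The peptide gene Sst rose in iKO libraries, Sstr1 had the most negative fold change of the receptor genes without being called, and Sstr4 and Sstr2 had smaller negative ones. The log2 fold change of Sstr2 (-0.16) was close to that of Galr1 (-0.14). Against the tamoxifen-injected controls Galr1 was the more negative (-0.22 against -0.17). Promoters of Sst and Sstr2 are shown because, of the receptor and called genes in the promoter table, they are those that carry the full cyclic AMP response element (CRE). RefSeq promoters from 250 bases before to 50 after the start were matched for 8 of the 10 receptor genes, not for Sstr1 and Galr1. The CRE, TGACGTCA, reads the same on both strands and was found in 1.79% of 32851 such promoters in the mouse. The 250 bases before the start are printed in build GRCm38.p6 with the CRE in capitals, for Sst at chr16:23890845-23891094 on the minus strand and for Sstr2 at chr11:113619077-113619326 on the plus strand.
Sst: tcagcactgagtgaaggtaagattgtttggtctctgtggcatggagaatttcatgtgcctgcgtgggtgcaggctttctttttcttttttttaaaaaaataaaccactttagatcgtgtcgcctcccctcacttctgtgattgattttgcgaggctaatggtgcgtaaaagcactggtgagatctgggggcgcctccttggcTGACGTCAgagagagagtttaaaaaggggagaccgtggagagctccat
Sstr2: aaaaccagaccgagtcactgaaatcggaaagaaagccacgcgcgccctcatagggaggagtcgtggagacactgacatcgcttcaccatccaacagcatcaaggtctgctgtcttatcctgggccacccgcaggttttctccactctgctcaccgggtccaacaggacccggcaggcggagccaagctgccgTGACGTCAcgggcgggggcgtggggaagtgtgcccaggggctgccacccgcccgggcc
The element begins 48 bases before the start in Sst and 58 bases before it in Sstr2. Its 5-base part TGACG, searched on both strands and contained in the CRE, was also found in Adra2a, 69 bases before the start, and in 20.8% of all promoters. A match describes these letters only.

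Sstr1 was at 1.38, 2.11, 1.77, 1.52, 2.40 and 1.67 CPM in controls 1 to 6, and at 0.748, 0.555, 1.69, 0.418, 0.881 and 0.614 CPM in iKO 1 to 6. Of the iKO libraries 5 were below every control, and iKO 3 stood inside the control range. The means were 1.81 ± 0.38 and 0.818 ± 0.458 CPM (SD, n = 6 each), a log2 fold change of -1.17 (95% interval -1.80 to -0.55). This was not called over all genes (adjusted p = 0.0921 by edgeR). An exact 2-sided permutation test of this gene alone, which took no account of sex, gave p = 0.00866. The call turned on 1 library and on the method: it passed without iKO 3 (log2 fold change -1.47, adjusted p = 0.00955 by edgeR), with no filter on low counts (0.00753 by edgeR) and with DESeq2 (0.0258). Its unadjusted p was under 0.05 in all 22 alternatives run, and its adjusted p ranged from 0.00753 to 0.497. Raw counts ran from 22 to 33 in controls and from 7 to 34 in iKO libraries.

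Sstr4 was at 1.76, 1.58, 1.89, 2.00, 2.62 and 2.47 CPM in controls 1 to 6, and at 2.14, 1.5, 1.79, 0.954, 1.26 and 1.04 CPM in iKO 1 to 6. The 3 male iKO libraries and the female iKO 2 were below all controls, and the corn-oil controls 5 and 6 were the highest of the 12. The means were 2.05 ± 0.407 and 1.45 ± 0.456 CPM (SD, n = 6 each), with a log2 fold change of -0.54 (95% interval -1.02 to -0.06, adjusted p = 0.453 by edgeR). An exact 2-sided permutation test gave p = 0.039. Against the 4 tamoxifen-injected controls alone the log2 fold change was -0.33 (95% interval -0.82 to 0.15). The 3 genes whose log2 CPM was most like that of Sstr4 over the 12 libraries, among 13879 genes searched, were the beta-globin genes Hbb-bs (Pearson r = 0.930) and Hbb-bt (0.928) and the mitochondrial iron importer Slc25a37 (0.916), all genes with high expression in red blood cell precursors. The 5 erythroid marker genes, all passing the filter and 0 called, summed to 123 to 267 CPM in controls and 72.5 to 287 CPM in iKO libraries. The lowest erythroid sums, 72.5 to 76.5 CPM, fell on the same male iKO 4, 5 and 6 as the lowest Sstr4 values, and the highest, 260 to 287 CPM, on controls 5 and 6 and iKO 1. Hbb-bs and Hbb-bt, picked for likeness to Sstr4 in the same 12 libraries, are among the 5 erythroid markers. The match of these sums with Sstr4 is therefore no separate evidence. The part of red blood cell RNA in the Sstr4 difference was not tested.

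**Figure D3:**
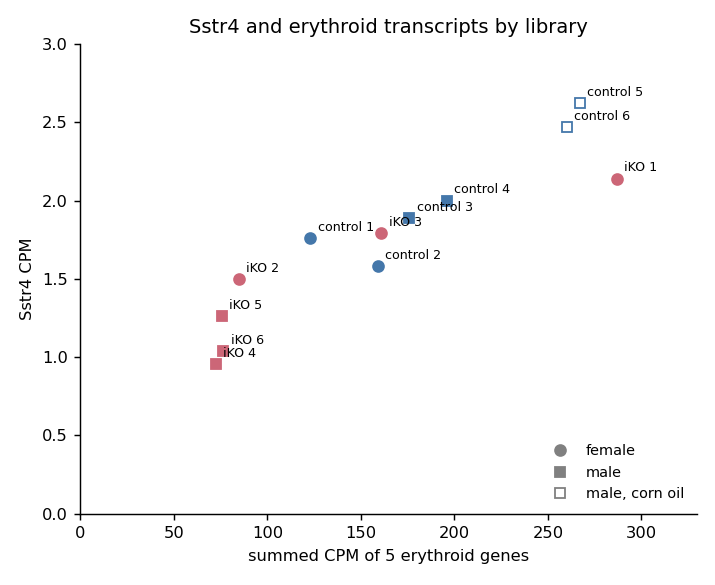
The horizontal axis is the summed level of 5 erythroid marker genes in CPM and the vertical axis that of Sstr4 in CPM, with 1 point for each of the 12 libraries, coloured by group (blue control, red iKO). The libraries iKO 4, 5 and 6 lie lowest on both axes and controls 5 and 6 and iKO 1 highest. The 5 markers include Hbb-bs and Hbb-bt, which were picked for likeness to Sstr4 in these libraries.

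Sstr2 ran from 5.24 to 7.63 CPM in controls (median 6.39) and from 4.06 to 8.57 CPM in iKO libraries (median 5.36). The iKO range enclosed the control range. Its log2 fold change was -0.16 (95% interval -0.53 to 0.21, adjusted p = 0.81 by edgeR), so a change of the size fitted for Sstr1 lies outside the interval. Without iKO 3 it was -0.31 (unadjusted p = 0.0363, adjusted p = 0.583 by edgeR). Genes most like Sstr1 over the 12 libraries were Cdk18, a cyclin-dependent kinase (r = 0.887), Abcc8, the sulfonylurea receptor of KATP channels (0.863), and Mst1r, a receptor tyrosine kinase (0.848). Each also had a negative log2 fold change that was not called (-0.47, -0.41 and -0.39). These 3 were picked for likeness to Sstr1 in the same 12 libraries, and their direction is therefore no separate evidence.

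Sst was at 8.87, 9.62, 5.78, 6.75, 5.45 and 5.49 CPM in controls 1 to 6, and at 11.7, 15.3, 13.6, 7.93, 11.4 and 8.97 CPM in iKO 1 to 6. Females were higher than males in both groups, so iKO 4 lay below both female controls and iKO 6 between them, but within each sex every iKO library was above every control. The means were 6.99 ± 1.82 and 11.5 ± 2.74 CPM (SD, n = 6 each), with a log2 fold change of 0.62 ± 0.11 (SE, adjusted p = 0.011 by edgeR). Sample numbers of the deposited tables form 2 runs, 1 to 8 (replicates 1 to 4 of each group) and 14 to 17 (replicates 5 and 6, all male). The call was lost within replicates 1 to 4 (0.49, adjusted p = 0.287 by edgeR), within replicates 5 and 6 (0.90, adjusted p = 0.0787 by edgeR) and without sex as a term (0.71, adjusted p = 0.0943 by edgeR). Sst is itself 1 of the 6 NP3 marker genes, of which 3 were called higher (Sst, Nts and Cysltr2) and 0 lower, beside 0.946% of all genes tested called in either direction. The other 3 did not rise, with log2 fold changes of -0.18 in Nppb, -0.03 in Il31ra and -0.02 in Htr1f. This list too was chosen with earlier results of these data known. Their summed level was 110 to 162 CPM in controls and 139 to 171 CPM in iKO libraries. Cortistatin (Cort), the other ligand of these receptors, averaged 0.0757 and 0.0771 CPM and did not pass the filter, nor did Sstr3 and Sstr5. Of the 4 other genes of the somatostatin system 1 was thus tested, and it rose.

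Galanin genes showed no called change. Galr1, a Gi/o-coupled galanin receptor, ran from 6.76 to 9.68 CPM in controls (median 8.98) and from 5.35 to 9.69 CPM in iKO libraries (median 7.95). Controls 1 to 4 lay close together, at 8.87 to 9.68 CPM, and control 5 and iKO 1 were low. The log2 fold change was -0.14 (95% interval -0.42 to 0.14, adjusted p = 0.778 by edgeR). Galr2 ran from 0.482 to 1.42 CPM in controls (median 1.12) and from 0.716 to 1.51 CPM in iKO libraries (median 1.27). Its log2 fold change was 0.11 with a wide 95% interval of -0.45 to 0.66 (adjusted p = 0.92 by edgeR), at 7 to 27 counts per library. The peptide gene Gal, which rises in neurons after nerve injury, was at 22.4 ± 5.76 and 18.5 ± 2.28 CPM (SD, n = 6 each, log2 fold change -0.27, adjusted p = 0.617 by edgeR). Of the 4 other galanin genes listed 2 were tested and 0 were called (median log2 fold change -0.16).

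The neuropeptide Y receptor genes are among the more abundant of the 10 and did not separate. Npy1r, the Y1 receptor gene of peptidergic neurons, ran from 19.6 to 32.3 CPM in controls (median 28.2) and from 21.4 to 41.3 CPM in iKO libraries (median 25.4). Its mean was higher in iKO libraries and its median lower, since iKO 4 alone stood at 41.3 CPM. The log2 fold change was 0.11 (95% interval -0.26 to 0.47, adjusted p = 0.871 by edgeR), and -0.05 without iKO 4. Npy2r, the Y2 receptor gene, ran from 33.7 to 45.9 CPM in controls (median 42.0) and from 36.5 to 50.6 CPM in iKO libraries (median 43.9). Its 2 lowest controls were the corn-oil controls at 33.7 and 35.9 CPM. The log2 fold change was 0.09 (95% interval -0.10 to 0.28, adjusted p = 0.778 by edgeR). The ligand gene Npy was at 0.207 ± 0.171 and 0.287 ± 0.326 CPM (SD, n = 6 each) and did not pass the filter, and Pyy, a gut peptide gene, had 0 counts in all 12 libraries. Of 6 other genes of the family, ligands and receptors, 0 could be tested.

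The alpha-2 adrenergic receptor genes had positive fold changes that were not called. Adra2a encodes the alpha-2A receptor, the main target of clonidine in pain relief. It was at 7.49, 5.27, 6.85, 6.41, 4.21 and 4.87 CPM in controls 1 to 6, and at 9.35, 9.10, 6.08, 7.22, 6.98 and 7.86 CPM in iKO 1 to 6. The corn-oil controls were the 2 lowest libraries, and iKO 3 was the only iKO library below controls 3 and 4. The means were 5.85 ± 1.26 and 7.77 ± 1.27 CPM (SD, n = 6 each), a log2 fold change of 0.38 (95% interval 0.06 to 0.70, adjusted p = 0.423 by edgeR), with an exact 2-sided permutation p = 0.0346. Against tamoxifen-injected controls alone it was 0.26 (95% interval -0.06 to 0.59). Genes most like Adra2a over the 12 libraries were the zinc finger gene Zfp346 (r = 0.913), Tmem106a (0.899) and Fam19a4 (0.893), a marker of C low-threshold mechanoreceptors, which are unmyelinated touch neurons. Markers of those neurons summed to 949 to 1140 CPM in controls and 1000 to 1360 CPM in iKO libraries, with 0 of 4 called. Most of that sum was Piezo2, at means of 819 and 997 CPM (log2 fold change 0.30). Fam19a4 had a log2 fold change of 0.18, while Th (-0.08) and Slc17a8 (-0.10) went the other way. Fam19a4 was picked for likeness to Adra2a in the same 12 libraries and is itself among the 4 markers. Its likeness is therefore no separate evidence. The part of these neurons in the Adra2a difference was not tested.

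Adra2c, the alpha-2C receptor gene, ran from 8.68 to 16.8 CPM in controls (median 10.4) and from 8.45 to 15.1 CPM in iKO libraries (median 13.5). Control 5 was the highest of all 12 libraries and iKO 1 the lowest. The log2 fold change was 0.19 (95% interval -0.17 to 0.55, adjusted p = 0.76 by edgeR) against all controls. Without control 5 it was 0.33 (unadjusted p = 0.0337, adjusted p = 0.325 by edgeR). Of 6 other adrenergic receptor genes tested 0 were called (median log2 fold change 0.30). Adra1a, the alpha-1A receptor gene, had the smallest p of them, at 1.03 ± 0.203 and 1.27 ± 0.290 CPM (SD, n = 6 each, log2 fold change 0.36, unadjusted p = 0.0705 by edgeR). Of 4 genes for making and storing noradrenaline 0 were called (median -0.12), and Slc18a2, the vesicular monoamine transporter gene, had the smallest p (log2 fold change -0.17).

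Adenosine genes split between the A1 receptor gene, at nearly equal means in both groups, and lower levels of Adora2b, the low-affinity A2B receptor gene, and of Nt5e, the gene of the ectonucleotidase CD73. In nociceptors AMP outside the cell is turned into adenosine by CD73 and by the phosphatase encoded by Acp3, and the adenosine acts on A1 receptors. Promoters of these genes are shown because Nt5e and Adora2b were both called lower and Adora1 was not, and all 3 carry several GC boxes. The GC box, GGGCGG on either strand with overlaps counted, was found in 35.7% of all promoters. The 250 bases before the start (build GRCm38.p6) have GC boxes in capitals, for Adora1 at chr1:134235458-134235707 on the minus strand (the first of 2 starts in the table), for Adora2b at chr11:62248734-62248983 on the plus strand and for Nt5e at chr9:88327359-88327608 on the plus strand.
Adora1: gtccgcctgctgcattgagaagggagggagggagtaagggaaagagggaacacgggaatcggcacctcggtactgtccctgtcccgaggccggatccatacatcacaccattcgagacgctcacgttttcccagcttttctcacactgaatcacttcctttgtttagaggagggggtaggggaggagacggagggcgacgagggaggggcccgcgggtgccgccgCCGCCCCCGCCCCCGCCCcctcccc
Adora2b: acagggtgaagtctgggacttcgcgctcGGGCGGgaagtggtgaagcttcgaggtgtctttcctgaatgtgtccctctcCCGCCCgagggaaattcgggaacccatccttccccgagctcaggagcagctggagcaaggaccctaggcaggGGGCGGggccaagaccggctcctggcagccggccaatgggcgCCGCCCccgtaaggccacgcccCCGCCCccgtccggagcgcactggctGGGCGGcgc
Nt5e: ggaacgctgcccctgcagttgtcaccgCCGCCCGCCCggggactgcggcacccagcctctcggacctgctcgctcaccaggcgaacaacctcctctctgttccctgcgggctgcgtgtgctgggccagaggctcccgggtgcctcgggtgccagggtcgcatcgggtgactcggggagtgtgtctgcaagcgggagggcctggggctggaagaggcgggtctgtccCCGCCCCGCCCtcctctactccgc
Adora1 holds 3 GC boxes, Adora2b 6 and Nt5e 4, and the second Adora1 start holds 0. None of these promoters holds the CRE.

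Adora1 ran from 91.5 to 105 CPM in controls (median 94.7) and from 76.7 to 110 CPM in iKO libraries (median 102). Library iKO 1 was the lowest of the 12. The means were 96.8 ± 6.07 and 97.3 ± 11.9 CPM (SD, n = 6 each), with a log2 fold change of 0.01 and the narrowest 95% interval of the 10 genes, -0.16 to 0.19 (adjusted p = 0.974 by edgeR). Larger changes in either direction lie outside that interval.

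Nt5e was at 105, 88.6, 102, 113, 85.9 and 82.7 CPM in controls 1 to 6, and at 61.7, 66.1, 60.3, 77.2, 64.2 and 68.4 CPM in iKO 1 to 6. All 6 iKO libraries were below all controls. The means were 96.2 ± 12.2 and 66.3 ± 6.08 CPM (SD, n = 6 each), with a log2 fold change of -0.53 ± 0.08 (SE, adjusted p = 0.00587 by edgeR). It was also called within replicates 1 to 4 (-0.56, adjusted p = 0.0309 by edgeR) but not within replicates 5 and 6 (-0.34, adjusted p = 0.0994 by edgeR). Acp3 also separated the groups, but only narrowly, at 667 to 885 CPM in controls (median 779) and 523 to 665 CPM in iKO libraries (median 642). The log2 fold change of -0.31 ± 0.09 (SE) was not called against all controls (adjusted p = 0.164 by edgeR). Against tamoxifen-injected controls it was called (log2 fold change -0.39, adjusted p = 0.0244 by edgeR). Within replicates 5 and 6 its log2 fold change was only -0.08 (adjusted p = 0.835 by edgeR). Of 9 genes for making and removing adenosine Nt5e alone was called, beside 0.946% of all genes tested. The median log2 fold change of the list was -0.17, beside 0.00 over all genes. The list was chosen with earlier results of these data known, so neither value is evidence about the pathway.

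Adora2b was at 6.42, 5.20, 5.78, 5.93, 5.52 and 4.63 CPM in controls 1 to 6, and at 3.31, 2.72, 3.94, 3.04, 4.53 and 3.01 CPM in iKO 1 to 6. Again all 6 iKO libraries were below all controls, with iKO 5 close to control 6. The means were 5.58 ± 0.619 and 3.43 ± 0.681 CPM (SD, n = 6 each), with a log2 fold change of -0.70 ± 0.14 (SE, adjusted p = 0.03 by edgeR). This call was lost on leaving out any 1 of controls 1 to 4 or of iKO 2, 4 and 6, with adjusted p up to 0.142 by edgeR. It was also lost within replicates 1 to 4 (log2 fold change -0.84, adjusted p = 0.134 by edgeR) and within replicates 5 and 6 (-0.42, adjusted p = 0.718 by edgeR). Adora2a, named for comparison after its value was seen, was at 5.81 ± 1.20 and 6.83 ± 1.13 CPM (SD, n = 6 each, log2 fold change 0.20, adjusted p = 0.69 by edgeR).

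**Figure D4:**
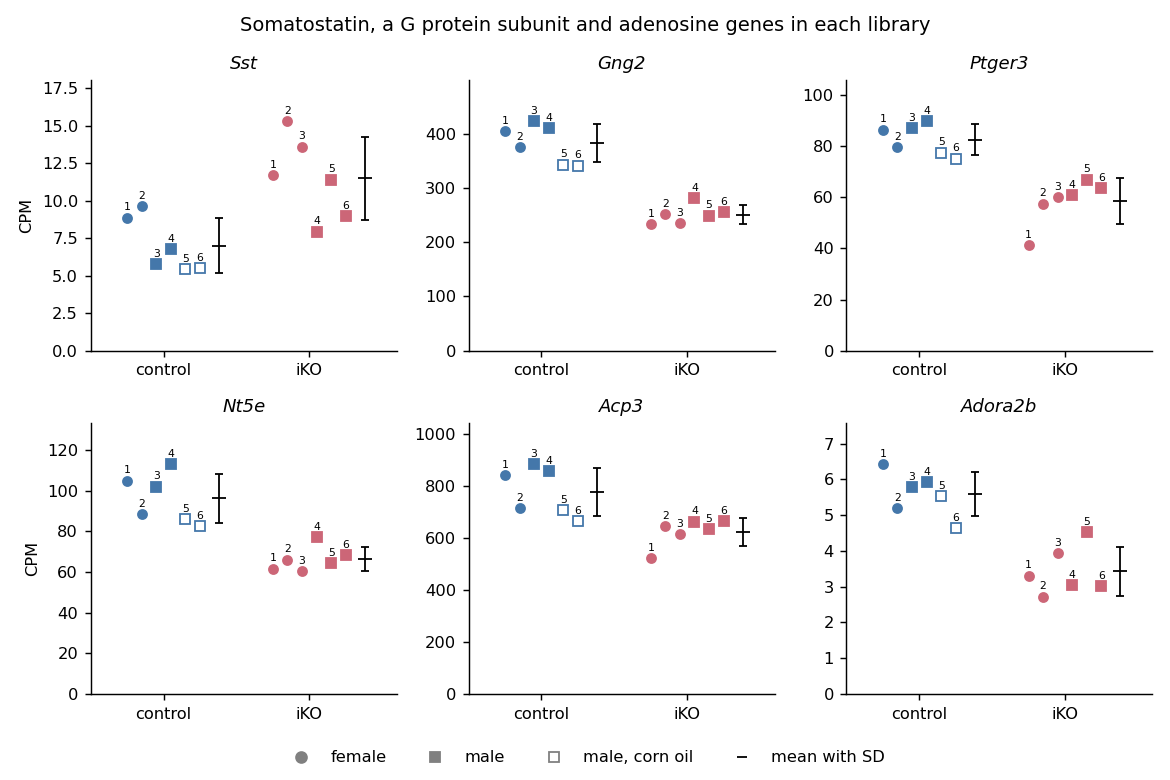
Each panel plots 1 gene, with its level in CPM (linear axis from 0) for 6 control and 6 iKO libraries numbered by replicate, and black bars for the mean with its SD. Gng2, Ptger3, Nt5e, Acp3 and Adora2b lie in every iKO library under the lowest control, and Sst is higher within each sex.

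Among genes that carry the signal from these receptors, 1 stood out. Gng2, a G protein gamma subunit gene, ran from 341 to 423 CPM in controls (median 390) and from 233 to 281 CPM in iKO libraries (median 250). All 6 iKO libraries were below all controls, with a log2 fold change of -0.60 ± 0.07 (SE, adjusted p = 0.000553 by edgeR). Of 16 genes of Gi/o alpha, beta and gamma subunits Gng2 alone was called, beside 0.946% of all genes tested. The median log2 fold change of the list was 0.00. Of 6 GIRK and Cav2 channel genes tested 0 were called (median -0.04), with the smallest p in Kcnj3, the GIRK1 gene. Kcnj3 was at 36.2 to 38.9 CPM in controls, and 5 of the 6 iKO libraries were above that range (40.8 to 49.4 CPM) with iKO 1 below it at 28.0 CPM. Its log2 fold change was 0.18 (adjusted p = 0.606 by edgeR), and without iKO 1 it was called (0.26, adjusted p = 0.0233 by edgeR).

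Of 14 adenylyl cyclase and protein kinase A genes 0 were called (median log2 fold change 0.02), and Adcy5 had the smallest p (-0.19 ± 0.06 SE, adjusted p = 0.231 by edgeR). Of 7 receptor kinase and arrestin genes 0 were called (median 0.14), and Grk5 had the smallest p (-0.20 ± 0.06 SE, adjusted p = 0.227 by edgeR). Of 27 other Gi/o-coupled receptor genes tested 1 was called, lower, with a list median of -0.02. It was Ptger3, the prostaglandin EP3 receptor gene, at 75.0 to 89.7 CPM in controls and 41.1 to 66.8 CPM in iKO libraries (log2 fold change -0.49 ± 0.09 SE, adjusted p = 0.0184 by edgeR). Leaving out control 1 ended that call (adjusted p = 0.075 by edgeR), as did leaving out control 2 (0.0616 by edgeR). It was also lost within replicates 1 to 4 (log2 fold change -0.60, adjusted p = 0.0998 by edgeR) and within replicates 5 and 6 (-0.22, adjusted p = 0.349 by edgeR). Over all 94 companion genes tested, out of 113 listed, 1 was called higher and 4 lower, 5 of 94 beside 0.946% of all genes tested, with a median log2 fold change of 0.00. The lists were chosen with earlier results of these data known, so this share is no evidence about the pathways.

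The injected agent differed within the control group, together with genotype and the run of sample numbers. The comparisons given here therefore do not isolate the agent. Against the 4 tamoxifen-injected controls 0 of the 10 receptor genes were called by edgeR, where 1.41% of all genes tested were called. An unadjusted p under 0.05 was found in 2 of the 10 against these controls, beside 16.4% of all genes tested. These controls are also part of the group of 6, and the iKO libraries are the same. Sstr1 had a log2 fold change of -1.04 (95% interval -1.74 to -0.35, adjusted p = 0.138 by edgeR) and Adra2c of 0.34 (95% interval 0.02 to 0.67, adjusted p = 0.284 by edgeR). Between the 2 corn-oil and the 2 tamoxifen-injected male controls, which also differ in genotype, levels did not overlap in 6 of 10 receptor genes (Npy2r, Sstr4, Galr1, Galr2, Adra2a and Adra2c). The same held for 46.5% of all genes tested. The corn-oil controls were higher in Sstr4, Galr2 and Adra2c and lower in Npy2r, Galr1 and Adra2a. They also carry sample numbers 14 and 15, as iKO 5 and 6 carry 16 and 17, while the other 8 libraries carry 1 to 8. With this run of numbers as a term in the fit 0 receptor genes were called.

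**Figure D5:**
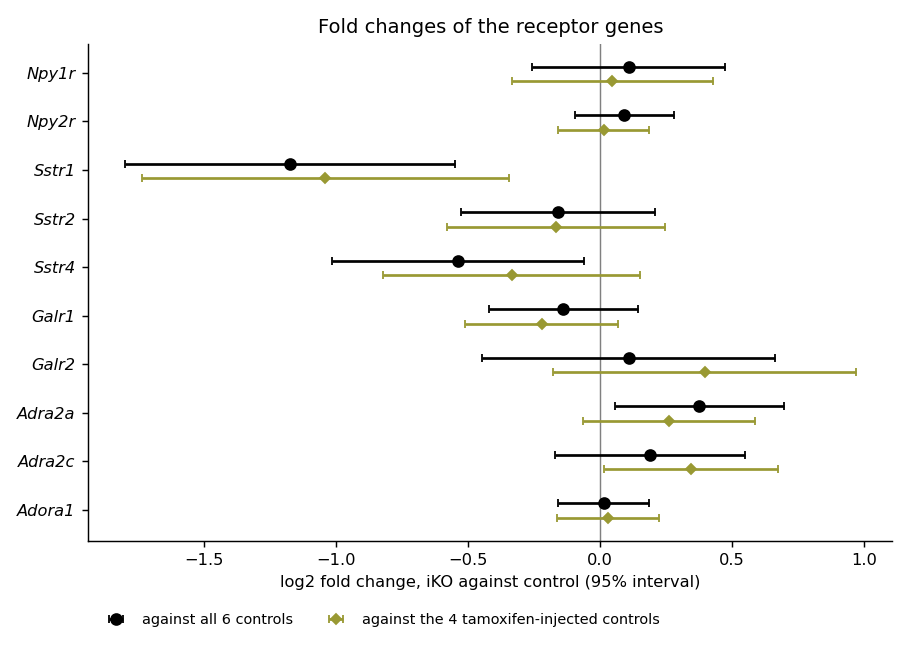
Points are log2 fold changes of the 10 receptor genes in iKO libraries against all 6 controls (black circles) and against the 4 tamoxifen-injected controls (olive diamonds), and bars are 95% intervals. The intervals of Sstr1 exclude 0 in both comparisons, those of Sstr4 and Adra2a against all controls only, and that of Adra2c against the tamoxifen-injected controls only. None of the 10 genes passed the adjusted threshold in either comparison.

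Sex changed no receptor gene past the threshold. Between males and females 0 of the 10 were called by edgeR (0 at an unadjusted p under 0.05), where 0.0549% of all genes tested were called, and DESeq2 called 17 genes of the transcriptome. The largest fitted difference was in Galr2, -0.27 in males against females on the log2 scale (95% interval -0.83 to 0.28). A test of whether the iKO difference itself depended on sex called 0 of the 10 and 0% of all genes, with 589 genes at an unadjusted p under 0.05 and 0 called by DESeq2. Of the 10 genes Sstr4 had the smallest p. In males all 3 iKO libraries (0.954 to 1.26 CPM) were below the 4 controls (1.89 to 2.62 CPM), while in females the 3 iKO libraries (1.5 to 2.14 CPM) lay on both sides of the 2 controls (1.58 and 1.76 CPM). The male minus female difference in log2 fold change was -1.16 ± 0.34 (SE, unadjusted p = 0.00483 and adjusted p = 0.945 by edgeR). The erythroid sums given above separate the male libraries in the same way, but they include globin genes picked for likeness to Sstr4.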

How the data were processed

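Poly(A) RNA of mouse dorsal root ganglia was sequenced in 12 libraries made with an unstranded TruSeq kit, per the labels' protocols. The submitters' processing notes name bcl2fastq 2.20.0.422, then STAR 2.7.8a, featureCounts 2.0.1 and the build GRCm39. How reads shared by several genes were counted is not given in the sources used here. Values deposited by the authors are raw counts, without normalisation. Gene names, exon lengths and overlaps came from an older build (GRCm38) by gene identifier, naming 52083 of 55416 identifiers, and promoters from RefSeq (GRCm38.p6).

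Groups came from the labels. Counts were filtered with filterByExpr, scaled by TMM (trimmed mean of M-values) and tested in edgeR 4.0.16 (R 4.3.3) with the robust quasi-likelihood test, on group and sex (9 residual degrees of freedom). Each p is 2-sided, adjusted by Benjamini-Hochberg over all genes tested, and called under 0.05. CPM is the count over the TMM-scaled library size, times 1e+06. Standard errors were obtained as the fold change over the square root of F. Permutation tests used log2 CPM (prior count 2) over the 924 relabellings, where the smallest p is 0.00216. They took no account of sex, injected agent or run of sample numbers, and were not adjusted for the number of genes. DESeq2 1.42.0 was an alternative. The procedure was tested on simulated data.

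The receptor genes and the 12 companion and 18 marker lists were chosen with earlier results of these data known. The text names all receptor genes, their ligands, Nt5e and Acp3, Prdm12, called companion genes (or the one with the smallest p in a list without any, where tested), and the 3 genes most like each receptor gene with an unadjusted p under 0.05, with unnamed gene models and pseudogenes left out.

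Replicate numbers did not pair the libraries. Alternatives were the replicate block, other scaling, filter, sex and run terms, other control sets, and each library left out.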

Additional observations from a re-analysis of the deposited data

Results flagged for a closer look

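Within groups of 6 libraries, 44 sets of values (22 genes in 2 groups) were searched for a single library far from the rest by Dixon's ratio. Chance flags about 1 in 20 groups, and 4 of 44 were found here. Galr1 was at 6.76 CPM in control 5, a corn-oil control, where the next lowest control had 8.51 CPM. The other 3 were all in iKO 1, the library with the highest fibroblast, macrophage and endothelial marker sums. Ptger3 was at 41.1 CPM there, with the next lowest iKO library at 57.5 CPM. Acp3 was at 523 CPM, with the next at 616 CPM, and Kcnj3 at 28.0 CPM, with the next at 40.8 CPM. The part of the cell composition of iKO 1 in these values was not tested.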

How the results depend on the processing

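Over 22 alternatives, 208 of the 220 receptor gene values kept their direction and side of the threshold, 3 became called and 9 changed sign. Sstr1 was the receptor gene called with DESeq2 and without the filter on low counts, giving a count of 1 against 0, and leaving out 1 library gave 0 to 1. Sign changes of log2 fold changes occurred in replicates 5 and 6 alone for Npy1r (-0.050), Galr1 (0.183), Galr2 (-0.204) and Gal (0.146), and in replicates 1 to 4 alone for Adora1 (-0.015). Leaving out 1 library moved Npy1r from -0.050 to 0.192, Galr2 from -0.041 to 0.237 and Adora1 from -0.017 to 0.069. It also moved Sstr2 from -0.307 (without iKO 3) to -0.081 (without iKO 1), Galr1 from -0.208 (without iKO 5) to -0.058 (without iKO 1) and Adra2c from 0.125 (without iKO 3) to 0.325 (without control 5), none of them called. All genes called numbered 278 with DESeq2, 253 without the filter, 235 against tamoxifen-injected controls, 35 in replicates 1 to 4, 82 in replicates 5 and 6 and 341 without iKO 1 and control 6, a setting chosen after seeing the data. Leaving out 1 library gave 92 to 364, with 92 without control 1, 103 without control 2, 93 without iKO 5, 97 without iKO 6 and 364 without iKO 1. The cause was not tested. Of 264 values of the 12 companion genes named, 241 kept their direction and side of the threshold, 17 lost a call, 5 became called and 1 changed sign. Calls of Sst, Nt5e and Gng2 stayed on leaving out any 1 of the 12 libraries, but those of Sst were lost in 3 other settings and that of Nt5e in 1. With the longest transcript Adora1 was at 19.5 CPM per kb.

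With the replicate number as a block (replicate block), 161 genes were called, 0 of them receptor genes, and Sstr1 was at -1.18 (adjusted p = 0.0644 by edgeR). Same-numbered libraries deviated together only in part, with correlations from -0.153 to 0.217, and controls 1, 2 and 5 matched their own number best.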

Other observations

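Adk, adenosine kinase, which removes adenosine inside cells, was named after its values were seen. It was at 304 ± 32.8 CPM in the 6 controls and 256 ± 13.5 CPM in the 6 iKO libraries (SD), with a log2 fold change of -0.25 (adjusted p = 0.199 by edgeR), and was called against the tamoxifen-injected controls alone (log2 fold change -0.33, adjusted p = 0.0206 by edgeR). Nt5e and Acp3, which make adenosine outside cells, were also lower there, with log2 fold changes of -0.61 and -0.39. All 3 values share the same libraries.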
